A study of Mus musculus with 12 samples.

Results

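The cytosolic ribosomal protein genes were read on the array as 49 of the 12422 probe sets that are not controls. A probe set belonged to them when its only platform symbol was Rpl or Rps with a number, or Rplp0, Rplp1, Rplp2 or Rpsa, and kinases of the Rps6k family were left out. The rule uses names alone and no measured value. The 49 probe sets stood for 35 genes: 20 read large-subunit genes, 24 read small-subunit genes, and 5 read the paralogues Rpl7l1, Rps4l, Rps27l and Rpl39l. A further 39 probe sets listed a ribosomal protein symbol together with other symbols, often pseudogenes, so no gene was named from them and they were kept apart.

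The cells were mouse embryonic fibroblasts from the DBA background strain whose KSR1 gene is deleted (KSR1-/-). KSR1 is a scaffold that holds together Raf, MEK and ERK, and H-RasV12 is an oncogenic form of the GTPase upstream of these kinases. All 4 lines share the KSR1-/- genotype and carry GFP. The GFP line holds GFP alone, the H-RasV12 line adds H-RasV12, the KSR1 line has KSR1 put back, and the KSR1+H-RasV12 line has both. Each condition is 1 cell line measured on 3 arrays, and nothing states that these came from separate cultures, so p-values measure only the spread between arrays, which may be technical. The lines form a 2 by 2 layout of KSR1 and H-RasV12, and the comparisons ask what each does without and with the other.

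Ribosomal proteins pair with ribosomal RNA to build the small and large subunits that read mRNA and join amino acids. Their mRNAs are among the most abundant in growing cells. Most begin with a pyrimidine tract through which growth signals such as mTOR control their translation, a step that an mRNA array does not read.

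Every array had been scaled to a trimmed mean of 500.3, and array medians ran from 160.6 to 216.5. Testing was limited to the 6897 probe sets that exceeded the overall median of 181.4 on 3 or more of the 12 arrays. For the deleted gene, Ksr1, probe set 92765_s_at read 21.1 to 144 with GFP, 14.2 to 32.2 with H-RasV12, 207 to 1605 with KSR1 and 141 to 301 with both, so that 1 GFP array overlapped the line with both. A second Ksr1 probe set read 180 to 366 in all lines, and whether either reads the deleted part was not analysed here. Of the 23 probe sets for fibroblast markers, 18 were tested. The summed signal of all 23 was 74309 to 85132 on the GFP arrays, 66526 to 88163 with H-RasV12, 47932 to 50102 with KSR1 and 27890 to 42453 with both. In that order of lines the brighter Col1a1 probe set had means of 18526, 17857, 8461 and 2133. Sparc had 10064, 6871, 3219 and 3998. With KSR1 alone S100a4 (11434, 13630, 12787 and 9506), Dcn (2807, 4894, 5751 and 2311) and the brightest Pdgfra probe set (1433, 1904, 1963 and 1517) did not fall. Of 14 leukocyte probe sets 2 were tested, of 9 endothelial 2, of 9 epithelial 2, of 6 skeletal muscle 3 and of 8 neural 4. The epithelial sum was 580.3 to 987.9 on the GFP and H-RasV12 arrays and 1753 to 2207 with both, the leukocyte sum peaked at 4198 and the neural sum at 8168 on KSR1 arrays. The epithelial rise was in Krt19, whose brighter probe set had means of 118, 90.2, 418 and 1209 in the order GFP, H-RasV12, KSR1 and both, while Cdh1 had means of 525 to 758 and Krt5, Krt8, Krt14, Krt18 and Epcam of at most 71.9. The leukocyte peak was mostly Cd14 (means of 1126, 1200, 2250 and 1441), with Ptprc at means of 1.40 to 15.0. The largest part of the neural sum was the brighter Tubb3 probe set (means of 3220, 3412, 3716 and 3282). The neural rise on KSR1 arrays was mostly in the brighter Nes probe set (means of 285.5, 335.5, 1971 and 331.5). The part of these marker shifts in the results below was not tested. In RNA from whole cultures, fewer cells of a type and less RNA per cell cannot be told apart.

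A part of the ribosomal protein probe sets was high in all 4 lines and, in the values as deposited, nearly level across them. After quantile normalization the lines differed by more than the arrays of a line, as described further on. Of the 49 probe sets, 22 read above a signal of 3000 on every array, from 3189 to 34846, and 11 of these read large-subunit genes and 11 small-subunit genes. They stood for 20 genes and are called the bright probe sets here. Over the whole array 300 probe sets passed that mark, and 15% of them were either bright ribosomal protein probe sets (22) or probe sets with shared symbols (23). The bright probe sets held 2.96% to 4.37% of an array's summed signal. A signal depends on how well its probes hybridise, so these values are not compared between genes as mRNA levels.

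The large-subunit gene Rplp0 encodes the base of the stalk that recruits elongation factors. Its signals were 14106, 21603 and 25713 on the GFP arrays, 18604, 17605 and 28343 with H-RasV12, 15813, 20799 and 26487 with KSR1, and 16983, 21814 and 22720 with both. Replicate 3 was the highest array of each line, and all 4 lines overlapped. The means were 20474 ± 5885, 21517 ± 5932, 21033 ± 5341 and 20506 ± 3084 (SD, n = 3 arrays). The KSR1 line differed from the GFP line by a log2 of 0.05, with a 95% interval of -0.51 to 0.61.

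Rpl41 encodes the smallest ribosomal protein. It read 14385, 26312 and 29727 with GFP, 20102, 19457 and 34846 with H-RasV12, 17198, 24506 and 30643 with KSR1, and 20380, 26522 and 24586 with both. Its group means spanned only 0.09 on the log2 scale, and it gave the highest signal of the array on 4 of the 12 arrays. The suffix of its probe set, 100213_f_at, marks probes that can match related sequences, as processed pseudogenes of ribosomal protein genes are.

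Among the small-subunit genes, Rps24 group means ran from 20970 ± 5212 with GFP to 22066 ± 4657 with KSR1 (SD, n = 3). Rps3, which lies at the mRNA entry channel, ran from 13180 ± 2583 with KSR1 to 15013 ± 3894 with H-RasV12. Rps7, which also binds the p53 regulator Mdm2, read 10619, 15575 and 14276 with GFP, 13437, 12690 and 17410 with H-RasV12, 11110, 11402 and 13643 with KSR1, and 13413, 13788 and 14953 with both. The lines overlapped again, and the 4 Rps7 means spanned 0.26 on the log2 scale. Across the 22 bright probe sets the log2 range of the 4 group means had a median of 0.14 and ran from 0.08 to 0.59. The other 255 probe sets above 3000 had a median range of 0.37, and all 6897 tested had 0.54. The arrays of a line did not agree better for the ribosomal proteins: the median residual SD was 0.30 for the bright ones, 0.24 for the other 255 and 0.29 for all tested.

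**Figure D1:**
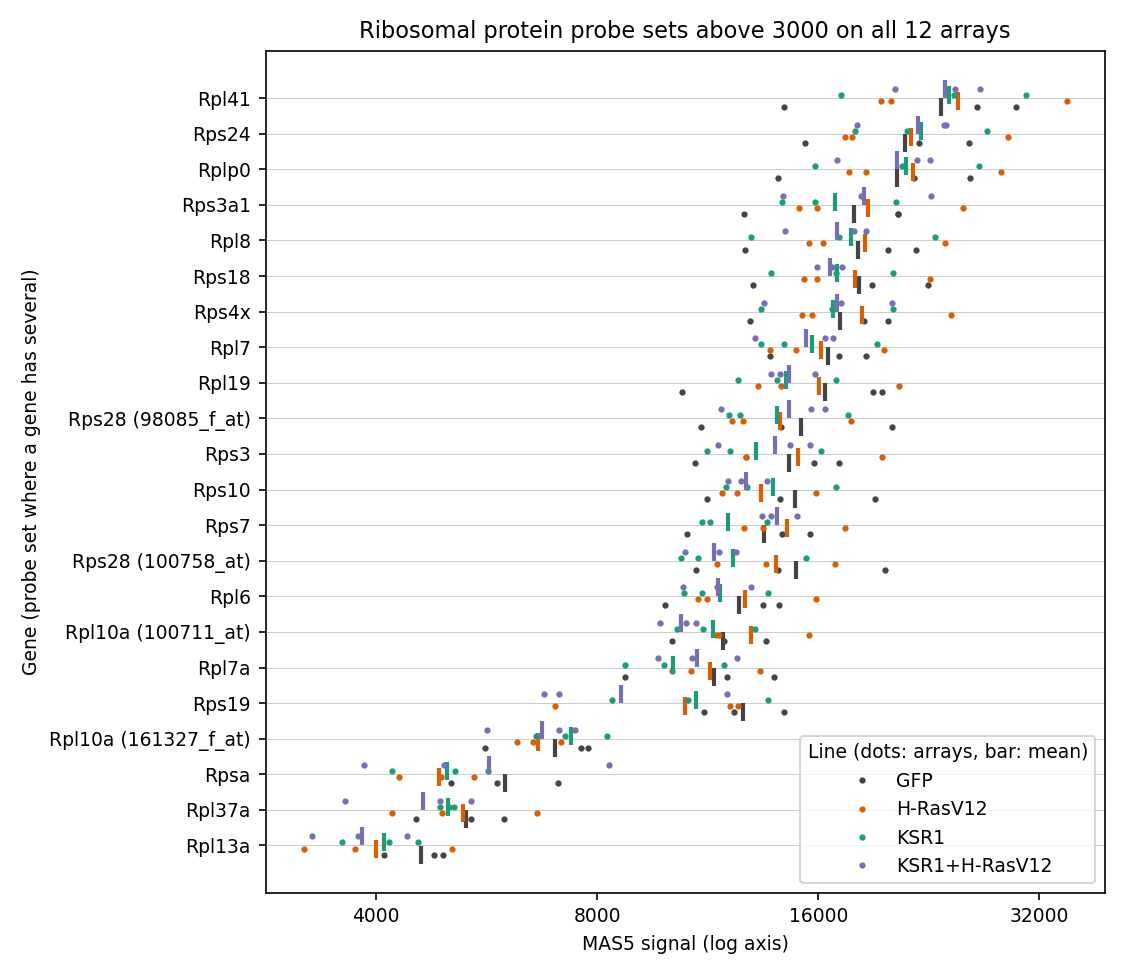
MAS5 signal (horizontal, log axis) of each ribosomal protein probe set above 3000 on all 12 arrays (rows). Dots are single arrays coloured by line and bars are the means of 3 arrays. The 4 bars of a row lie close together beside the spread of the dots, and the widest gap is that of Rps19, 0.59 on the log2 scale.

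Tests were run with limma on log2(signal + 23), with p-values adjusted over all 6897 tested probe sets and called at an adjusted p under 0.05. Fold changes on this scale understate those of dim probe sets. Of the 49 members 29 were tested (25 genes, 14 probe sets of each subunit and the paralogue Rpl7l1), and the other 20 read 1.51 to 320.8. H-RasV12 against GFP called 0 of 29, with 0 at an unadjusted p under 0.05, where 0.0725% of all tested probe sets were called. KSR1 against GFP called 1 of 29, lower, where 11.8% of all were called and 6.81% were called lower. KSR1+H-RasV12 against KSR1 called 1 of 29, higher, where 15.1% of all were called and 8.16% were called higher. KSR1+H-RasV12 against H-RasV12 called 0 of 29, with 1 at an unadjusted p under 0.05, where 14.8% of all were called. KSR1+H-RasV12 against GFP called 1 of 29, lower, where 15.6% of all were called and 7.93% were called lower. The interaction of KSR1 and H-RasV12 called 1 of 29, positive, where 7.7% of all were called and 4.16% were positive. A test for any difference among the 4 lines called 1 of 29 and 22.6% of all tested. Every one of these calls was the same Rpl22 probe set. With no filter on low values all 49 members were tested, and no probe set other than Rpl22 was called.

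The median log2 difference of the 29 tested members was 0.00 for H-RasV12 against GFP and -0.08 for KSR1 against GFP, where all tested probe sets had 0.01 and 0.04. For KSR1+H-RasV12 against KSR1, against H-RasV12 and against GFP it was -0.01, -0.08 and -0.08, where all tested had -0.07, -0.05 and -0.02. The comparisons share their control arrays and are not independent of each other. For the bright probe sets the 95% interval of the difference stayed within 1 log2 unit either way in 22 of 22 for the first 4 comparisons. It did so in 21 of 22 for KSR1+H-RasV12 against GFP, the exception being Rps19, and in 21 of 22 for the interaction. Simulated data with known changes gave a recovery of 50% of 2-fold and 97% of 4-fold changes for KSR1 against GFP, so a smaller shift of a single probe set could pass without a call. The simulated noise was independent between probe sets, without a level shared by an array, and fewer probe sets were changed than were called here. Recovery in the real data may therefore differ. Of the 39 probe sets with shared symbols 34 were tested and 0 were called by limma in any comparison, with 0 to 2 at an unadjusted p under 0.05.

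**Figure D2:**
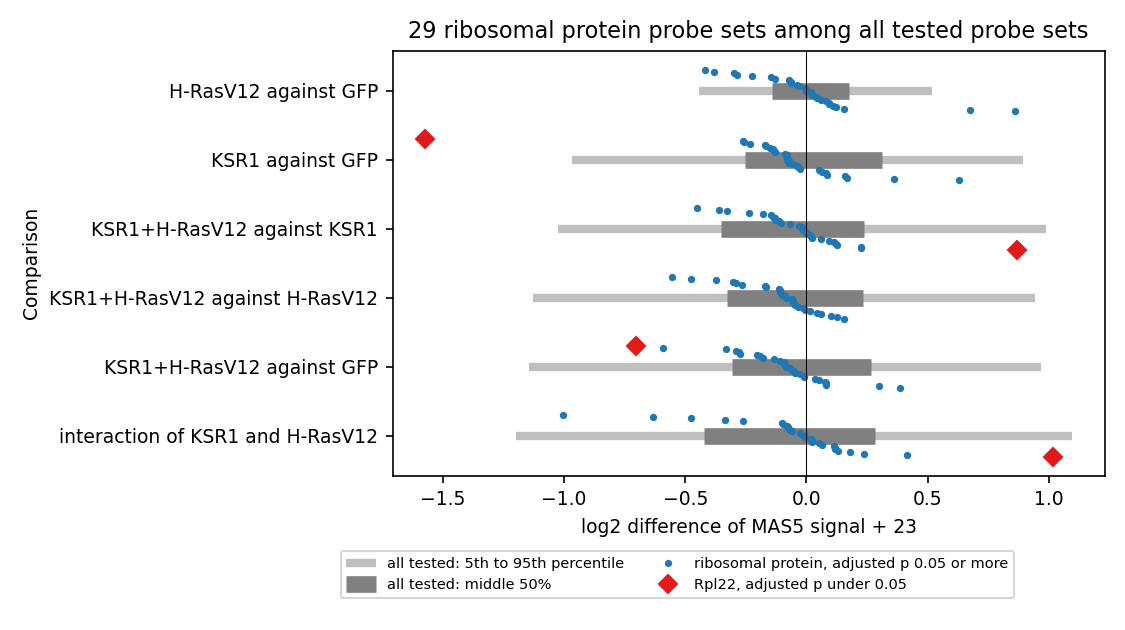
Log2 differences of the 29 tested ribosomal protein probe sets (dots) in 5 comparisons and the interaction. Grey bars give the middle 50% and the 5th to 95th percentile of all 6897 tested probe sets, and diamonds mark calls at an adjusted p under 0.05. Rpl22 is the single diamond in 4 of the rows, at -1.57 for KSR1 against GFP and 0.87 for KSR1+H-RasV12 against KSR1.

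Rpl22 encodes a large-subunit protein that also binds RNA outside the ribosome, is dispensable for bulk translation and is needed for the development of alpha-beta T cells. Its probe set 92857_at read 931, 1073 and 937 on the GFP arrays, 1110, 752 and 820 with H-RasV12, 313, 386 and 255 with KSR1, and 558, 692 and 538 with both. The KSR1 arrays were all below every other array, and the arrays with both lay between them and the lines without KSR1, overlapping neither. The means were 980.5 ± 80.2, 893.9 ± 190.1, 317.6 ± 65.7 and 595.9 ± 83.7 (SD, n = 3).

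Rpl22 in the KSR1 line was 2.98-fold lower than in the GFP line, a log2 difference of -1.57 ± 0.20 (SE) with a limma adjusted p of 0.000119. Adding H-RasV12 to KSR1 raised it 1.83-fold, by 0.87 ± 0.20 (limma adjusted p = 0.00853). H-RasV12 without KSR1 gave a difference of -0.15, with an interval of -0.58 to 0.28 and a limma adjusted p of 1.00. The effect of H-RasV12 with KSR1 differed from that without it by 1.02 ± 0.28 (limma adjusted p of the interaction = 0.0419). The line with both was still 0.70 ± 0.20 log2 below GFP (limma adjusted p = 0.0278). Against H-RasV12 it was 0.56 lower, which did not pass the test (-0.56, limma adjusted p = 0.0828), although the arrays did not overlap.

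Both KSR1 against GFP and KSR1+H-RasV12 against KSR1 were called for Rpl22 under all 23 alternatives run, with adjusted p between 7.13e-05 and 0.00137 and between 0.00277 and 0.0440. The other calls were less steady. KSR1+H-RasV12 against GFP was lost in 7 of 23, among them without GFP replicate 1, 2 or 3 (adjusted p = 0.0524, 0.0965 and 0.0674) and without KSR1+H-RasV12 replicate 1 or 3 (0.0600 and 0.0879). The interaction was lost in 10 of 23, up to an adjusted p of 0.123 without H-RasV12 replicate 2. It was lost without GFP replicate 1, 2 or 3, H-RasV12 replicate 2 or 3, KSR1 replicate 1 or 3, or KSR1+H-RasV12 replicate 2.

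A second Rpl22 probe set, 92856_at, did not show the pattern. It read 215, 246 and 196 with GFP, 110, 202 and 175 with H-RasV12, 184, 272 and 181 with KSR1, and 146, 204 and 177 with both. All lines overlapped. KSR1 against GFP was -0.06 with an interval of -0.62 to 0.51 (limma adjusted p = 0.929), so the fall seen by the first probe set lies outside the interval of the second. Which transcripts each probe set matches was not analysed here.

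**Figure D3:**
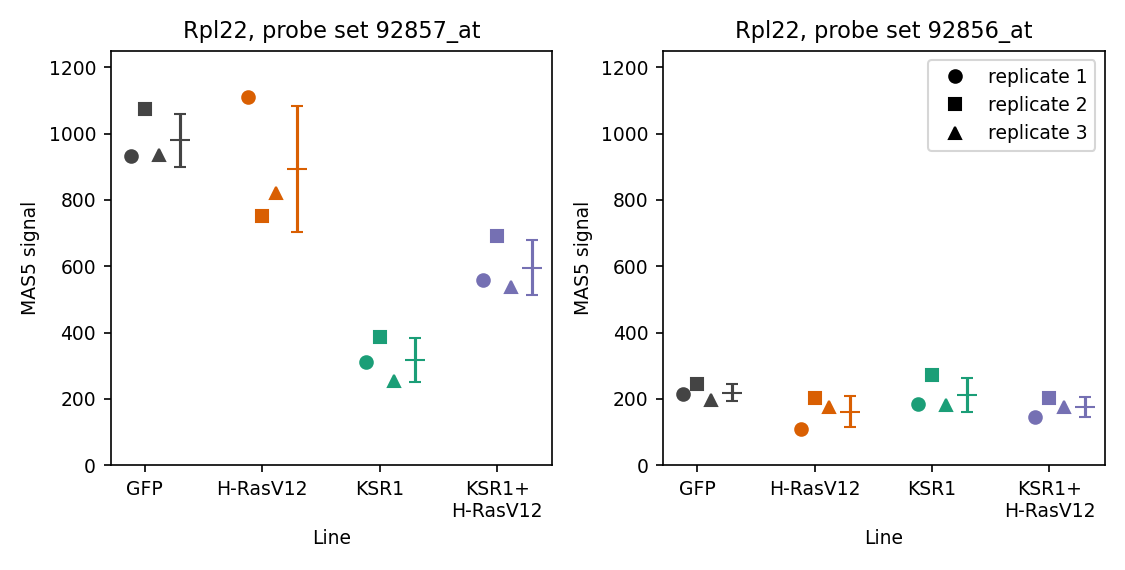
MAS5 signal of the 2 Rpl22 probe sets by line, on a linear axis from 0. Symbols are single arrays by replicate number, and the cross and bar are the mean and SD of 3 arrays. In 92857_at the KSR1 arrays lie at 255 to 386 and the arrays with both at 538 to 692, while in 92856_at all lines overlap.

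Start-site sequences are shown for Rpl22, whose probe set 92857_at was called and whose probe set 92856_at was not. Those of 5 bright members that gave no call among the lines are printed beside them. The 5 are examples and do not stand for all bright members. Rpl6 and Rps3 are the pair that kept closest to the level of the array, as described further on. RefSeq (GRCm38.p6) lists 37 promoters for 28 of the 35 genes. Each window runs 5′ to 3′ on the gene's strand, from 120 bases before the listed start to 15 bases after it. Rpl22, which has 2 listed starts, and Rpl6 lie on the plus strand, and the other genes lie on the minus strand. Capitals mark matches to the 5 motifs searched: the ETS core CCGGAAG, the E-box CACGTG, the TATA box TATAAA and the GC box GGGCGG on both strands, and the pyrimidine run CTTTCC on the listed strand.
Rpl22 start A, chr4:152325606-152325740: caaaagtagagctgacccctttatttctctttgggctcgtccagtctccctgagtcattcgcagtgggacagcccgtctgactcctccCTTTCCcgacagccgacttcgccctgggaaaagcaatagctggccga
Rpl22 start B, chr4:152324316-152324450: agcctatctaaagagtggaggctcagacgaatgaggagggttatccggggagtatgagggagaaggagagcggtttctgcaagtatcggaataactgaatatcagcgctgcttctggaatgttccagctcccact
Rps7, chr12:28635939-28636073: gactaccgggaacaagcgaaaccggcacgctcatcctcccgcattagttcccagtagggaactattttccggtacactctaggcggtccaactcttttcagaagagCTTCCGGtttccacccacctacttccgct
Rps10, chr17:27635230-27635364: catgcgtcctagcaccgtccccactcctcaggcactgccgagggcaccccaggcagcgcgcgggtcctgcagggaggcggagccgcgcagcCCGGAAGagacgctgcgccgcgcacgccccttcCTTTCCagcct
Rps18, chr17:33955651-33955785: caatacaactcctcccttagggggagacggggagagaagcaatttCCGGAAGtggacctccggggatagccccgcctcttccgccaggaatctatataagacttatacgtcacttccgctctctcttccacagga
Rpl6, chr5:121204381-121204515: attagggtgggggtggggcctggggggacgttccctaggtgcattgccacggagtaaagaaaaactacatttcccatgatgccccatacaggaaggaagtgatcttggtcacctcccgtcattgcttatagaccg
Rps3, chr7:99483695-99483829: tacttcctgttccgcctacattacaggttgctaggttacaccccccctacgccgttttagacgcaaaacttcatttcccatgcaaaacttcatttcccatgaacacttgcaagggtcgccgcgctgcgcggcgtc

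Start A of Rpl22 holds a CTTTCC run and no ETS core, and start B holds no match in this window. Rps7, Rps10 and Rps18 each hold 1 ETS core, on the opposite strand in Rps7, and Rps10 also holds CTTTCC beyond its start. Rpl6 and Rps3 hold no match in this window. In the rest of the 300 bases listed, Rpl6 holds an ETS core and CTTTCC, and Rps3 and Rps10 hold a GC box. Start B of Rpl22 holds a TATA box there. No 2 matches overlap in these windows. Over the full 300 bases listed for each promoter, the ETS core occurred in 32.4% of the 37 member promoters and 8.86% of all 32851. Of the 18 bright genes with a listed promoter 8 held it over those 300 bases and the others did not. Both Rpl22 promoters lacked it as well. A link between motif content and signal was not tested. CTTTCC occurred in 45.9% against 14.1%, GGGCGG in 56.8% against 35.7%, CACGTG in 10.8% against 7.15% and TATAAA in 10.8% against 13.6%. These are matches of letters and show no binding.

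The other tested members that were not bright were dimmer and gave no call. Rps27, a zinc finger protein of the small subunit, read 736 to 1064 over the 12 arrays with means of 827.0 ± 27.2, 923.4 ± 57.1, 937.0 ± 121.2 and 825.7 ± 126.1 (SD, n = 3). Its H-RasV12 arrays (863 to 976) lay above its GFP arrays (800 to 854), a difference of 0.15 with an interval of -0.21 to 0.51. Its paralogue Rps27l had means of 13.5 to 14.9 and was not tested. Rpl7l1, the paralogue of Rpl7, had means between 360.3 with H-RasV12 and 473.1 with GFP. Rps13 read 97.6 on GFP replicate 1 and 239 to 527 on the other 11 arrays, and its interaction did not pass the test (limma adjusted p = 0.341). Rps29 read 238 to 311 with KSR1 and 196 to 218 with GFP, which did not overlap and gave no call (0.36 ± 0.28, limma adjusted p = 0.464). The dim Rpl19 probe set had means of 94.5 to 189, with all lines overlapping.

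Probe sets for the same gene often disagreed about whether the mRNA was there. Of 10 genes with several members, Rps4x had 5 probe sets, 1 with a mean of 17297 and 4 between 18.5 and 74.0. Rpl7 had 15916 and 16.8, Rps24 had 21583 and 72.3, and Rpl19 had 15355 and 137. Rps28 had 14499, 13184 and 81.2, and Rpl10a had 11684 and 6937. A low signal of a member therefore says little about its gene: 10 genes had no tested probe set, among them Rps14, Rps15, Rps20 and Rpl32, whose products every ribosome holds.

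As deposited, the ribosomal protein signals moved more between arrays of a line than between lines, and they moved together. The level of an array was taken as the median deviation of the 22 bright probe sets from their own means. It was -0.33, 0.13 and 0.28 on the GFP arrays, -0.12, -0.15 and 0.40 with H-RasV12, -0.24, -0.11 and 0.24 with KSR1, and -0.24, 0.03 and 0.11 with both (log2). Replicate 3 was the highest in every line, at 0.11 to 0.40, and replicate 1 lay between -0.33 and -0.12. The SD between arrays of a line was 0.27, while the 4 line levels spanned 0.08. Taking off this shared level lowered the median SD of a bright probe set over the 12 arrays from 0.27 to 0.11, so that a median of 84% of its variance was shared. The level is built from these same probe sets, which favours a high share. The SD rose for Rps19 (0.39 to 0.49), Rpsa (0.31 to 0.43) and Rpl10a 161327_f_at (0.17 to 0.24).

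The other probe sets above 3000 moved the same way by less, from -0.23 on GFP replicate 1 to 0.17 on H-RasV12 replicate 3. Values that reflect RNA and hybridisation also varied: the actin 3′ signal was 7981 to 26873, its ratio to the 5′ signal 1.07 to 1.77, the Gapdh ratio 0.74 to 0.88 and the 18S control 146 to 3312. On 2 of the replicate 1 arrays the actin 3′ signal was lowest, 7981 with GFP and 8629 with both, and the array level there was -0.33 and -0.24. Their part in the array level was not tested. Quantile normalization, which gives every array the same distribution, lowered the SD between arrays of a line to 0.044. The line levels were then 0.06, 0.04, -0.01 and -0.10 and spanned 0.16, more than that SD. All KSR1+H-RasV12 arrays (-0.17 to -0.02) then lay below all GFP arrays (0.05 to 0.08).

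**Figure D4:**
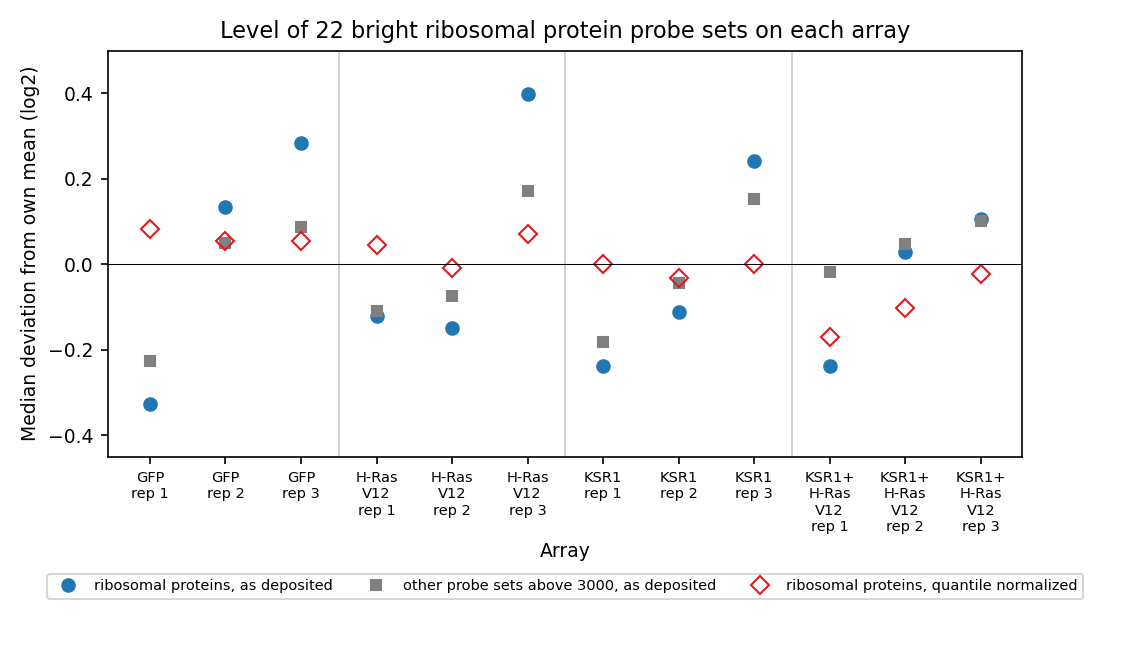
Median log2 deviation of the 22 bright ribosomal protein probe sets on each array (circles), of the other 255 probe sets above 3000 (squares), and of the ribosomal proteins after quantile normalization (open diamonds). Circles run from -0.33 to 0.40 and the third array of each line is the highest, while the diamonds stay between -0.17 and 0.08.

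After quantile normalization Rpl10a and Rps28 joined Rpl22 among the calls. The Rpl10a probe set 100711_at read 10101, 11893 and 13593 with GFP, 11739, 11601 and 15518 with H-RasV12, 10270, 11132 and 13135 with KSR1, and 9746, 10896 and 10582 with both. The line with both was below H-RasV12 on every array, and the values as deposited gave -0.30 ± 0.18 (limma adjusted p = 0.323). Quantile normalization gave -0.41 for that comparison (limma adjusted p = 0.00551) and -0.32 against GFP (limma adjusted p = 0.0234). For Rps28 100758_at against GFP it gave -0.41 (limma adjusted p = 0.0479), and as deposited -0.33 ± 0.23 (limma adjusted p = 0.406). The second probe set of Rpl10a, 161327_f_at, had means of 7008, 6638, 7363 and 6739, and that of Rps28 had 15164, 14202, 14054 and 14577.

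Most bright members kept in step with the array level, and a few did not. The SD of the difference from it over the 12 arrays was 0.04 for Rpl6 and 0.05 for Rps3. It was 0.49 for Rps19, 0.43 for Rpsa and 0.24 for Rpl10a 161327_f_at. Rps19, a small-subunit protein whose gene is mutated in Diamond-Blackfan anaemia, read 11191, 12304 and 14372 with GFP, 12449, 12136 and 7002 with H-RasV12, 10643, 8395 and 13683 with KSR1, and 12020, 6777 and 7092 with both. On 8 arrays it read 10643 to 14372, and on 4 it read 6777 to 8395: H-RasV12 replicate 3, KSR1 replicate 2 and KSR1+H-RasV12 replicates 2 and 3. The GFP arrays held none of the low values.

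The Rps19 difference between KSR1+H-RasV12 and GFP was -0.59 ± 0.27 with an interval of -1.17 to -0.01, and it did not pass the test (limma adjusted p = 0.178). Without KSR1+H-RasV12 replicate 1, the array of that line at 12020, it was -0.85 and was called (limma adjusted p = 0.0437). Rpsa encodes a small-subunit protein also known as the laminin receptor precursor. It read 7073, 5061 and 5842 with GFP, 4301, 4897 and 5438 with H-RasV12, 5674, 4203 and 5119 with KSR1, and 8294, 3858 and 4954 with both. Against the array level it was highest on KSR1+H-RasV12 replicate 1, at 0.89, and GFP replicate 1, at 0.75, the arrays with the lowest actin 3′ signals, whose part was not tested. No comparison of lines was called for it.

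**Figure D5:**
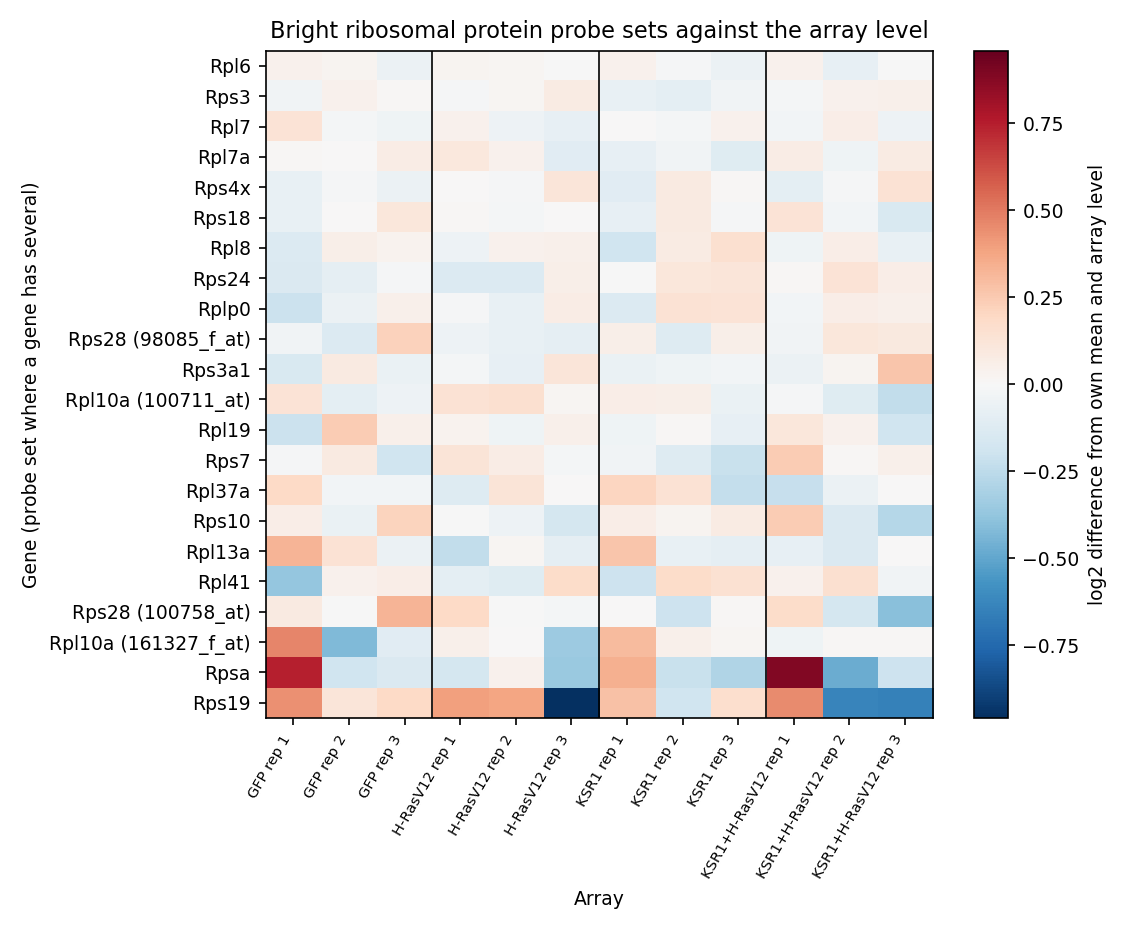
Log2 difference of each bright ribosomal protein probe set (rows) from its own mean and from the array level (columns are the 12 arrays, colour runs from blue, below, to red, above). Rows are ordered by their spread. Rpl6 at the top stays within 0.08, while Rps19 at the bottom reaches -0.96 on H-RasV12 replicate 3 and Rpsa 0.89 on KSR1+H-RasV12 replicate 1.

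Outside the members, the 10 probe sets whose log2 values followed the mean of the tested members most closely over the 12 arrays had Pearson r of 0.94 to 0.97. Of these, 7 listed ribosomal protein symbols among several, 2 are unnamed here, and 1 was Ybx1, an RNA-binding protein that packages mRNA (r = 0.94). The points share libraries and scaling, so this is a description.

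Lists of genes that build, regulate or work with the ribosome held a few calls each. Of all tested probe sets, KSR1 against GFP called 4.97% higher and 6.81% lower. KSR1+H-RasV12 against KSR1 called 8.16% higher and 6.92% lower. Against H-RasV12 these shares were 7.10% and 7.71%, and against GFP 7.71% and 7.93%. The list counts are to be read against these shares. H-RasV12 against GFP called 0 genes by limma in each of the 8 lists examined. Among 48 tested genes for ribosome biogenesis and the nucleolus, 1 (2.08%) was higher in KSR1 than in GFP, where 4.97% of all were. It was the small nucleolar protein Nhp2, and the list's median was 0.24. Nhp2 rose by 1.00 ± 0.28 (limma adjusted p = 0.0324), a call lost in 7 of 23 alternatives, among them without GFP replicate 1 or 3 or KSR1 replicate 2 or 3. In KSR1+H-RasV12 against KSR1, 3 were lower (6.25%, where 6.92% of all were) and the median was -0.26. These were Ftsj3, Rrp9 and the rRNA methyltransferase Fbl, which was at -0.68 ± 0.18 (limma adjusted p = 0.0175). The Ftsj3 call was lost in 12 of 23 alternatives and those of Rrp9 and Fbl in 4 each, that of Fbl with median scaling and without KSR1 replicate 2 or 3 or KSR1+H-RasV12 replicate 2. The count of 3 became 0 without KSR1+H-RasV12 replicate 2 and 7 without its replicate 1. Against H-RasV12 the line with both had 1 lower (2.08%), Tcof1, and against GFP 2 (4.17%), Tcof1 and Polr1a. These calls were lost under 6 to 14 of 23 alternatives. Of 7 tested Myc family genes Myc itself, a driver of ribosome production, read 772, 743 and 630 with KSR1 and 534, 204 and 192 with both. It fell by 1.29 ± 0.29 (-1.29, limma adjusted p = 0.00714) and was called under all 23 alternatives. The Myc antagonist Mxd4 was lower in KSR1 than in GFP (-1.92 ± 0.34, limma adjusted p = 0.00153), and Mxi1 was higher with both than with GFP (1.56 ± 0.35, limma adjusted p = 0.00647). Both held under all 23 alternatives. In a list of 7 genes a single call is 14.3%.

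Of 28 tested initiation factors and their regulators, 1 (3.57%) was higher and 0 lower in KSR1+H-RasV12 against KSR1, where 8.16% and 6.92% of all were. This was Eif4ebp1, the mTOR target that holds back cap-dependent initiation. It read 1057, 836 and 927 with KSR1 and 2346, 2495 and 2415 with both, a rise of 1.35 ± 0.21 (limma adjusted p = 0.000536) that was called under all 23 alternatives. With both it was also above GFP (1.05 ± 0.21, limma adjusted p = 0.00312) and above H-RasV12 (0.89 ± 0.21, limma adjusted p = 0.0100, or 0.0577 on replicates 2 and 3 alone). Of 18 tested Rps6 kinases and mTOR pathway genes, 2 (11.1%) were higher in KSR1+H-RasV12 against KSR1, where 8.16% of all were. These were Lamtor3 and Rragd, members of the lysosomal amino acid sensing complexes. Rragd read 160, 85.5 and 79.5 with KSR1 and 441, 578 and 490 with both, a rise of 2.05 ± 0.37 (limma adjusted p = 0.00143) that was called under all 23 alternatives. Every Rragd array outside the line with both lay below the filter level of 181.4. The gene therefore entered the tests only through the arrays where it was high. Its call and its part in the 11.1% are a description and not support. Sesn1, a sestrin that restrains mTOR complex 1, read 1257, 772 and 806 with H-RasV12 and 268, 419 and 279 with both. It was lower with both than with H-RasV12 (-1.48 ± 0.23, limma adjusted p = 0.000424), a call made under all 23 alternatives. Against GFP it was -0.74 ± 0.23 (limma adjusted p = 0.0415), and this call was lost in 10 of 23, among them without GFP replicate 1, 2 or 3, H-RasV12 replicate 3, KSR1 replicate 2 or KSR1+H-RasV12 replicate 1 or 3. For KSR1+H-RasV12 against KSR1 the list's count ran from 1 without KSR1 replicate 2 to 4 without KSR1+H-RasV12 replicate 3.

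Among 18 other transcripts known for the same pyrimidine tract as the ribosomal proteins, 0 were called by limma for KSR1 against GFP or KSR1+H-RasV12 against KSR1. The initiation factor Eif4b was lower with both than with H-RasV12 (-0.61 ± 0.15, limma adjusted p = 0.0107), a call lost without H-RasV12 replicate 2. It was 5.56% of this list, where 7.71% of all were lower. Eif4b and Gas5, 11.1% of the list, were lower with both than in GFP, where 7.93% of all were. These calls were lost without GFP replicate 1, 2 or 3 and without KSR1+H-RasV12 replicate 1 or 2. Of 9 elongation and termination factors 1 (11.1%) was higher with KSR1 than in GFP, where 4.97% of all were. This was Gspt2, a call lost without GFP replicate 2 or KSR1 replicate 2. Of 19 cytosolic aminoacyl-tRNA synthetases 3 (15.8%) were lower with KSR1 than in GFP, where 6.81% of all were. With both, 3 (15.8%) were higher than with KSR1, where 8.16% of all were. Aars, which charges alanine tRNA, was in both groups, at -0.79 ± 0.17 (limma adjusted p = 0.00780) and 0.76 ± 0.17 (limma adjusted p = 0.00793). So was Nars, at -0.71 ± 0.20 (limma adjusted p = 0.0293, lost in 4 of 23 alternatives) and 0.91 ± 0.20 (limma adjusted p = 0.00584). Nars was also called for the interaction (1.11 ± 0.28, limma adjusted p = 0.0250), a call lost in 6 of 23. It was 5.26% of the list, where 4.16% of all were positive. The count of 3 lower ran from 1 without GFP replicate 1 to 5 without KSR1 replicate 3. That of 3 higher ran from 2 without GFP replicate 2 to 4 without H-RasV12 replicate 1.

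The mitochondrial ribosomal proteins, built into the separate ribosome of that organelle from genes of their own, held calls in 1 direction. Of 56 tested genes, 9 were higher and 0 lower with both than with GFP, 6 were higher than with H-RasV12, and 3 higher than with KSR1, with medians of 0.26, 0.32 and 0.18. The 9 higher were 16.1% of the list, where 7.71% of all tested probe sets were called higher, and the 6 and 3 were 10.7% and 5.36%, where 7.10% and 8.16% were. The difference from the cytosolic ribosomal proteins was not tested. Mrps36 read 842, 806 and 691 with KSR1 and 1632, 1323 and 1452 with both, a rise of 0.89 ± 0.17 (limma adjusted p = 0.00231) that was called under all 23 alternatives. The 9 called against GFP became 3 without GFP replicate 1 or without GFP replicate 3, 5 without KSR1+H-RasV12 replicate 2 and 4 without KSR1+H-RasV12 replicate 3. The 6 called against H-RasV12 became 3 without H-RasV12 replicate 1, and the 3 called against KSR1 became 1 without KSR1 replicate 1 or 2 or KSR1+H-RasV12 replicate 3.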

How the data were processed

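Total RNA of 12 arrays (4 lines, 3 arrays each) was measured on a 1-colour Affymetrix array after biotin labelling, as the labels' protocols state. The authors deposited MAS5 signals, per the submitters' processing notes: the deposited values are intensities, 1 for each probe set, on a linear scale. The MAS5 version is not given in the sources used here. The 12488 probe sets held 66 controls, which were left out. Of the others, 10833 had 1 platform symbol, 396 had several and 1193 had none. All 35 member symbols were found in the RefSeq gene table of GRCm38.p6, which also gave the promoter sequences.

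The members and gene lists were chosen with earlier results of these data known. Values were taken as log2(signal + 23), 23 being the rounded 20th percentile. All 12 arrays entered 1 limma fit (limma 3.58.1, R 4.3.3; lmFit, contrasts.fit, eBayes with an intensity trend, 8 residual degrees of freedom), with Benjamini-Hochberg adjustment. The number of arrays limits the precision. The steps were tested on simulated data. Members were named by calls, by spread of group means, by brightness, by having several probe sets, or by known role, and list genes by the size of their called change. Alternatives covered the pseudocount, the filter, the scaling, the variance model, a replicate block, and leaving out each array.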

Additional observations from a re-analysis of the deposited data

Results flagged for a closer look

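For Rpl22 (probe set 92857_at), the interaction of KSR1 and H-RasV12 was called with the main settings, a call lost in 10 of 23 alternatives. The interaction was 1.02 on the log2 scale, with a limma adjusted p of 0.0419 that ranged from 0.0214 to 0.123 over 23 alternatives. Signals were higher on 3 of 3 arrays with both than on every KSR1 array, which compares those lines alone and does not measure the interaction. The second Rpl22 probe set, 92856_at, had an interaction of 0.18 with an interval of -0.62 to 0.98 (limma adjusted p = 0.854).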

How the results depend on the processing

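The number of members called was the same under all 25 alternatives for H-RasV12 against GFP (0), KSR1 against GFP (1) and KSR1+H-RasV12 against KSR1 (1). Quantile normalization called 1 for KSR1+H-RasV12 against H-RasV12 (Rpl10a), 3 for KSR1+H-RasV12 against GFP (Rpl22, Rpl10a and Rps28) and 2 for any difference among the 4 groups (Rpl22 and Rpl10a). KSR1+H-RasV12 against GFP gave 0 with median scaling and 0 on replicates 2 and 3 alone, and from 0 to 1 when each array was left out. The interaction gave 0 with no filter and 0 with no intensity trend, and from 0 to 1 when each array was left out. No called value changed sign. The spread of the line levels turned from below the SD between arrays to above it under quantile normalization (0.08 against 0.27, then 0.16 against 0.044). The median difference of the members stayed within 0.24 log2 of its main value under 23 alternatives. This bound is the SD between arrays of a line when the array level is taken over all tested members, not the bright ones alone. The median difference ranged from -0.17 to 0.14 for H-RasV12 against GFP, from -0.24 to 0.05 for KSR1 against GFP and from -0.14 to 0.17 for KSR1+H-RasV12 against KSR1, so its sign was not fixed. The cause of these changes was not tested.

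With the replicate number as a block, 1 member was called for KSR1 against GFP, KSR1+H-RasV12 against KSR1, KSR1+H-RasV12 against GFP and the interaction, and the block changed no call. Nothing in the labels says that the numbers pair the arrays: same-numbered arrays of different lines deviated with correlations of -0.02 to 0.51, of which 13 of 18 passed 0.1, and 10 of 12 arrays correlated best with their own number, which is a hint from the data and not the design. With 3 arrays a group and the recovery of 2-fold changes given above, a 2-fold or smaller change of a single probe set could be missed.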
